A study of Mus musculus with 2 samples.

Results

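Galectins are lectins that bind β-galactosides on glycoproteins and glycolipids. The genes described here are Lgals1, Lgals3, Lgals8 and Lgals9, which encode galectin-1, galectin-3, galectin-8 and galectin-9, together with Lgals3bp, which encodes a secreted glycoprotein that binds galectin-3 and is not itself a galectin. All probe sets that the platform annotation assigns to these 5 symbols were taken, 7 probe sets in all, and the 5 genes stand among 18193 genes with a symbol of their own. The members were chosen by name, but with earlier results of these data known.

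RNA came from white matter of male mice, namely optic nerve with optic tract. A pool from wild-type (WT) mice, 13 to 15 weeks of age, was compared with a pool from mice with a null mutation of Cd47 in all cells (CD47 null, here CD47 KO), 12 to 15 weeks of age, with 1 array per genotype. The pools held 5 WT and 4 CD47 KO mice by the series design, which the methods share, but 4 and 5 by the labelling protocol. CD47 sits in the cell membrane and engages SIRPα, an inhibitory receptor of phagocytes such as microglia, and the comparison asks how white matter differs in its absence. Because each genotype was measured once, no value below has a replicate or a test, and differences between mice cannot be told apart from differences between genotypes.

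The targeted gene was lower in CD47 KO, at 3928 in the WT pool against 1346 in the CD47 KO pool for the brightest of its 5 probe sets. The 3 probe sets that exceeded the floor on both arrays kept 34.3% to 39.5% of their WT signal. Where these probe sets lie relative to the deleted part was not examined. The floor is a signal of 106.4, the median of all values of both arrays, and values under it were raised to it. The 12473 genes that exceeded the floor on 1 array or both are called measured, and the median of their log2 ratios, CD47 KO over WT, was -0.02, with the central 90% of genes between -0.57 and 0.53. Checked against its label, the tissue carried the myelin genes of white matter on both arrays (Mobp, 53099 in the WT pool). Genes of neurons and of the pituitary had signal too and differed between the pools. Gad1 was at 2918 in WT and 1346 in CD47 KO, and Gh at 2191 and 6908. Whether tissue beside the optic nerve and tract entered the pools was not tested, and this limits all ratios below.

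The family is grouped by the form of its proteins. Galectin-1 is of the prototype form, with 1 carbohydrate recognition domain per chain. Galectin-3 is the chimera form, in which a proline- and glycine-rich tail lets the protein assemble into larger complexes on glycans, and galectin-8 and galectin-9 carry a pair of different domains joined by a linker. Galectins are made in the cytosol and leave the cell by an unconventional route, and inside the cell several of them gather on glycans that become exposed when a lysosome or phagosome is torn. Galectin-3, also known as Mac-2, is a classical antigen of macrophages and is known from activated microglia and from phagocytes that take up myelin.

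Of the 5 genes, Lgals3 was over 2-fold higher in CD47 KO, Lgals3bp was just under this threshold, and the other 3 differed little between the pools. Over all measured genes, 1.21% were over 2-fold higher and 0.818% over 2-fold lower. With a threshold of 1.5-fold, 2 of the 5 genes were higher, beside 4.02% of all genes. The log2 ratio was above 0 for 5 of 5 genes, beside 46.8% of all genes. When the measured genes were divided into 4 equal groups by brightness, 4 of the 5 were in the brightest group, in which 0.962% of genes were over 2-fold higher.

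**Figure D1:**
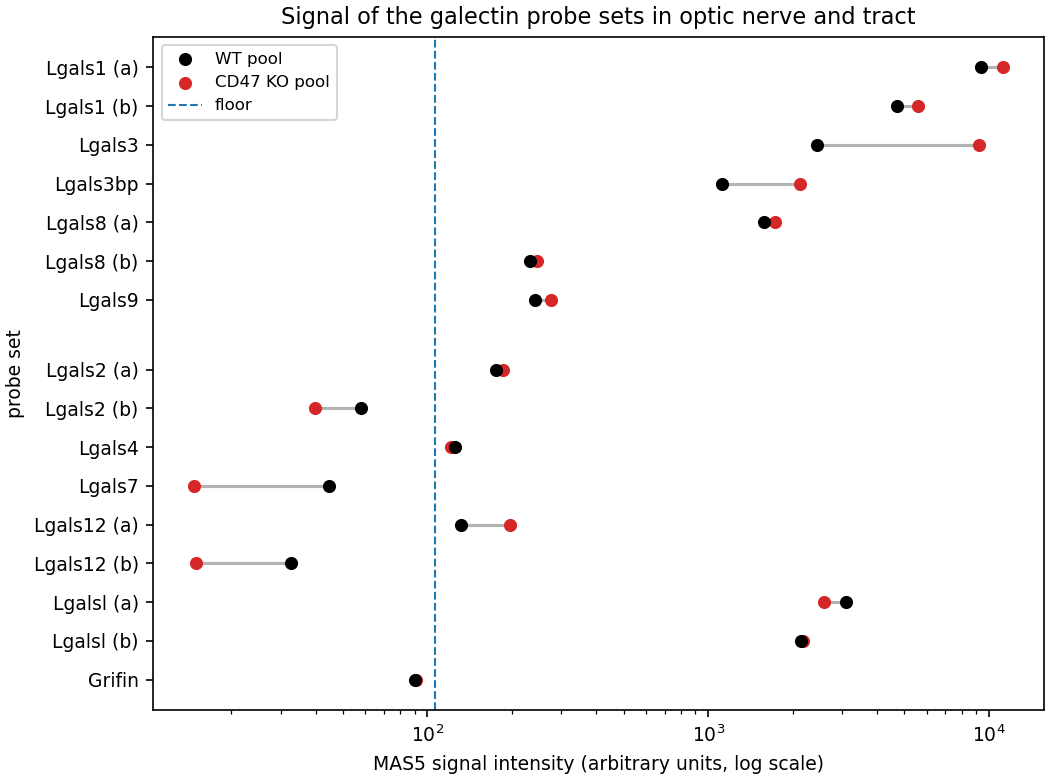
MAS5 signal intensity (log scale) of every probe set of Lgals3bp and the 4 galectin genes (upper 7 rows) and of the other galectins (lower 9 rows) in the WT pool (black) and the CD47 KO pool (red), joined by a grey line; letters in brackets order the probe sets of a gene by brightness, and a dashed line marks the floor of 106.4. The long grey lines above the floor belong to Lgals3 (2444 to 9207) and Lgals3bp (1117 to 2132).

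Lgals3 was measured by 1 probe set (1426808_at). Its signal was 2444 in the WT pool and 9207 in the CD47 KO pool, a log2 ratio of 1.91 or 3.77-fold. Both signals were far above the floor, 23.0 times in WT and 86.5 times in CD47 KO. Of the 12473 measured genes, 13 had a higher ratio, 0.104% of them. Among the genes over 2-fold higher, 10 had a CD47 KO signal as bright as that of Lgals3 or brighter, Lgals3 included, and the others were C1qa, Ctsd, Ctsz, Ly86, Lyz1, Lyz2, Mpeg1, S1pr3 and Tyrobp, named after their values were seen. The study singled out Lgals3 on these same arrays, so its direction here is not independent evidence.

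**Figure D2:**
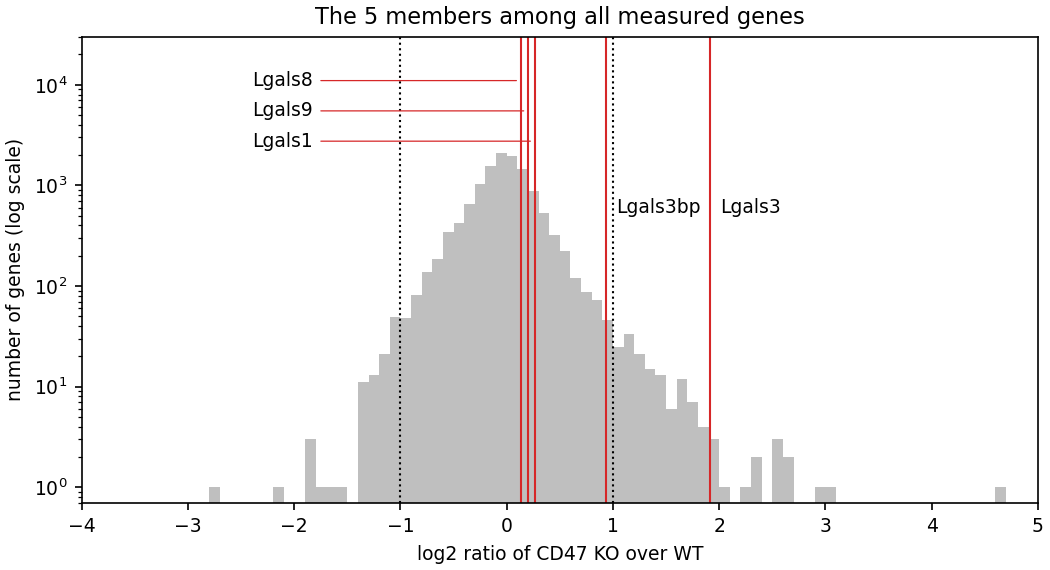
Number of genes (log scale) by their log2 ratio, CD47 KO over WT, in bins of 0.1, for the 12473 measured genes (grey), with Lgals3bp and the 4 galectin genes as red lines and 2-fold as dotted lines. Lgals3 lies at 1.91 in the sparse right tail and Lgals3bp at 0.93 on the shoulder, whereas Lgals1, Lgals8 and Lgals9 lie between 0.13 and 0.26, beside the peak.

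Lgals3bp was measured by 1 probe set (1448380_at), at 1117 in the WT pool and 2132 in the CD47 KO pool. This is a log2 ratio of 0.93 or 1.91-fold, and 179 of the measured genes, 1.44% of them, had a higher ratio. Of the 5 genes, that of galectin-3 and that of the glycoprotein it binds thus had the largest ratios.

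Lgals1 was bright in both pools. Its probe set 1455439_a_at went from 9384 to 11253, a log2 ratio of 0.26 or 1.20-fold. Its probe set 1419573_a_at went from 4719 to 5601, a log2 ratio of 0.25 or 1.19-fold. The log2 ratios of both probe sets thus differed by 0.01, although their signals in the same RNA were far apart, so a signal is no measure of the level of a transcript across probe sets. RefSeq also lists a pseudogene of Lgals1, Lgals1-ps1, and whether these probe sets bind transcripts of it was not examined.

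The genes of the double-domain galectins were nearly level. Lgals8 went from 1586 to 1736 by its brighter probe set (1422662_at, log2 ratio 0.13) and from 233 to 245 by the dimmer (1422661_at, log2 ratio 0.07). Galectin-8 is known to mark damaged vesicles for autophagy. Lgals9, which encodes a ligand of the receptor TIM-3, went from 241 to 276 (1421217_a_at, log2 ratio 0.20). Its signals were 2.26 times the floor in WT and 2.60 times in CD47 KO, and it lay in the dimmest of the 4 brightness groups. All 7 probe sets of the members were thus above the floor on both arrays and all had a higher signal in CD47 KO, by 1.05-fold to 3.77-fold, beside 48.3% with a ratio above 0 among all 23846 probe sets that exceeded the floor on 1 array or both.

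The promoters of the genes with the largest ratios and of Lgals9, a gene known to respond to interferon, are shown as the 250 bases before the start of the transcript (RefSeq, GRCm38.p6), which were available here for 4 of the 5 members. Capitals mark matches to the motifs searched on both strands, which were chosen after the sequences had been seen: the GC box GGGCGG, the PU.1 core GAGGAA, and the interferon response core, which is GAAA, any 2 bases and GAAA again, or its looser form AAANNGAAA, which every match of the full core also holds. The AP-1 motif TGANTCA, the E-box CACGTG and the TATA box TATAAA were searched as well and were in none of the 4 windows, against 7.81%, 7.15% and 13.6% of all windows in that order. Positions count from the start, with -1 for the base before it, and the search ran to 50 bases after it.
Lgals3, chr14:47373610-47373859, plus strand: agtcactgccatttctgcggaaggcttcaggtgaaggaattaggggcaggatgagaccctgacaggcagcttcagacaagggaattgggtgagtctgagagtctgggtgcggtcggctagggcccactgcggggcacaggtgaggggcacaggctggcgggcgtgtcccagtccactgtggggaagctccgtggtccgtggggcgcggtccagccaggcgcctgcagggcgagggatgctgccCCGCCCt
Lgals3bp, chr11:118401960-118402209, minus strand: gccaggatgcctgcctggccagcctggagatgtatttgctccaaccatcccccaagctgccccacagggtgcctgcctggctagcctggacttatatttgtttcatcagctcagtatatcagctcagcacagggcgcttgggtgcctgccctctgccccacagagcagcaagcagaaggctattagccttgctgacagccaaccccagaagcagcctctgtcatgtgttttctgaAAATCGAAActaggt
Lgals9, chr11:78984925-78985174, minus strand: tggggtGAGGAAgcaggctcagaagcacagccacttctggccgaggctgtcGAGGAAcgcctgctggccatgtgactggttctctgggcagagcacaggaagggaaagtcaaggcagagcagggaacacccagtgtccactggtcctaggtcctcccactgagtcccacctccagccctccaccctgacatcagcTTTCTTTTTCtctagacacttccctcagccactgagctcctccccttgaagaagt

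The window of Lgals3 was 66.0% G and C with 13 CpG and held a GC box at -7 on the opposite strand and another at position 5 after the start. A GC box was in 35.7% of all 32851 RefSeq windows of this length. The window of Lgals3bp was 55.6% G and C with 2 CpG. It held the looser interferon core at -15, as 10.6% of all windows did, and a PU.1 core at position 33. The window of Lgals9 was 58.4% G and C with 3 CpG. It held the full interferon core at -55 and at position 16, both on the opposite strand, and the PU.1 core at -244 and -199. The full core was in 3.44% of all windows and the PU.1 core in 28.3%. Of 17 interferon-stimulated genes listed for comparison, 9 held the full core and 11 the looser form in any of their windows. That count is by gene, so it is not on the same scale as the shares of windows. The window of Lgals8 had none of these motifs. The members with the largest ratios, Lgals3 and Lgals3bp, shared no motif of those searched. A match is a run of letters and does not show that a factor binds.

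The sole repeat measurement on these arrays is that by several probe sets for 1 gene. In 95% of 7457 such pairs, from 4740 genes, the log2 ratios lay within 0.71 of each other, a spread that leaves out the differences between mice and between hybridisations. Lgals3 exceeded the other members by more than this, by 1.65 over Lgals1, 1.78 over Lgals8, 1.71 over Lgals9 and 0.98 over Lgals3bp on the log2 scale. Of all 10 pairs of members, 6 were further apart than 0.71, namely these 4 and the pairs of Lgals3bp with Lgals8 (0.80) and with Lgals9 (0.73). The latter is no longer beyond the spread when all 11653 pairs of probe sets are used, with a limit of 0.74, or among the pairs of probe sets whose dimmer one was about as bright as Lgals9, with a mean signal of 209 to 401, where the limit is also 0.74. Lgals3bp and Lgals1 differed by 0.67, which is within the limit of 0.71 and beyond the limit of 0.43 found among the brightest pairs. Lgals1, Lgals8 and Lgals9 differed from each other by 0.06 to 0.13 and were not told apart.

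Of the other galectins, 6 had a probe set, 4 were measured, and none was over 2-fold in either direction, with a median log2 ratio of 0.02. Lgalsl, which encodes a galectin-related protein, was the brightest and went from 3107 to 2595 by one probe set (log2 ratio -0.26) and from 2143 to 2171 by the other (log2 ratio 0.02), so its direction rests on the probe set. Lgals12, known from fat cells, went from 132 to 196 (log2 ratio 0.57), close to the floor, and its other probe set was under the floor in both arrays. Lgals2 and Lgals4, which encode galectins known from the gut, had log2 ratios of 0.08 (175 to 185) and -0.05 (125 to 122). Lgals7, of stratified epithelia, was under the floor at 44.5 in WT and 14.7 in CD47 KO, as was Grifin, of the lens, at 90.1 and 90.8.

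Microglial markers were higher in CD47 KO too. Of 15 measured microglial genes, 12 had a log2 ratio above 0 and 6 were over 2-fold higher, with a median of 0.92, and their signals summed to 44820.4 for WT and 86985 for CD47 KO. Trem2, the lipid-sensing receptor (436 to 2795, log2 ratio 2.68), and Fcrls, an Fc receptor-like gene of microglia (556 to 3255, 2.55), were above Lgals3, whereas the adaptor gene Tyrobp (3950.2 to 13486, 1.77) was slightly below it. The brightest, the receptor gene Csf1r, had a log2 ratio of 0.46. The 3 genes below 0, all known as markers of homeostatic microglia, were Tmem119 (1205 to 842, -0.52), Sall1 (1705 to 1471, -0.21) and P2ry12 (1586 to 1442, -0.14). Other such markers in the list were above 0, among them Cx3cr1 (1.35), Gpr34 (0.87) and Siglech (0.36), so homeostatic markers did not move as a group. The log2 ratios within the list ranged from -0.52 to 2.68. In RNA of whole tissue, more cells of a type and more RNA per cell cannot be told apart, and the part of microglia in the ratio of Lgals3 was not tested.

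Markers of other cells that can carry Lgals3 are given as well. Perivascular macrophage genes were below 0 for 7 of 9 measured genes, with a median of -0.31 and signals that summed to 5114 for WT and 4382 for CD47 KO. Pf4, the brightest, went from 1045 to 726 (log2 ratio -0.53) and Cd163 from 499.6 to 314 (-0.67), whereas Ms4a7 went from 260 to 565 and was over 2-fold higher (1.12). Genes of neutrophils and monocytes had a median of 0.28 over 7 measured genes, with 6 above 0 and none over 2-fold, where the median is itself the lower bound of Mmp8 (85.0, under the floor, to 129), and signals that summed to 3324 for WT and 3976 for CD47 KO. The largest were Ngp (0.70), Ltf (0.56) and Camp (0.45), and the brightest, S100a8, went from 1309 to 1449.6 (0.15). Ccr2, Mmp9 and Elane of this list were under the floor in both arrays. The part of perivascular macrophages, neutrophils or monocytes in the ratio of Lgals3 was not tested.

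Markers of glia and stroma are given beside Lgals1 and Lgals3bp, which these cells can also carry. Genes of reactive astrocytes were above 0 for 10 of 10 measured genes, with a median of 0.96, and 5 were over 2-fold higher: Timp1 (log2 ratio 1.43), Serpina3n (1.27), S1pr3 (1.23), Osmr (1.17) and Lcn2 (1.14). The brightest, Vim, went from 33250 to 38993 (0.23). General astrocyte genes had a median of 0.07 over 10 genes, with Gfap at 0.52, Aqp4 at 0.31, Slc1a3 at 0.17 and the brightest, Glul, at -0.08. Genes of meninges and fibroblasts were below 0 for 9 of 10, with a median of -0.23. Among them Aldh1a2 had a log2 ratio of -0.53, Col1a1 of -0.52, Slc22a6 of -0.41 and the brightest, Ptgds, of 0.04. Genes of endothelium and mural cells had a median of -0.21 over 9, with Kdr at -0.79, Acta2 at -0.56, Kcnj8 at 0.47 and the brightest, Rgs5, at 0.03. The part of any of these cells in the ratios of Lgals1 and Lgals3bp was not tested.

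Myelin genes had a median of 0.10 over 9 genes, with Opalin at 0.62, Mobp at 0.15 and Mog at 0.11. Genes of neurons had a median of -0.93, with 9 of 10 below 0, and Nefm (-1.32), Slc17a6 (-1.28), Gad1 (-1.12) and Rbfox3 (682 to 341) were over 2-fold lower. The brightest, Snap25, went from 5610 to 2843 (-0.98). Lgals3 and Lgals3bp thus went the other way than most neuronal genes, whose signals summed to 18788 for WT and 11308 for CD47 KO. The log2 ratios of Lgals1, Lgals8 and Lgals9 were above 0 too but near it, at 0.13 to 0.26. The part of the neuronal difference in the ratios of the members was not tested.

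**Figure D3:**
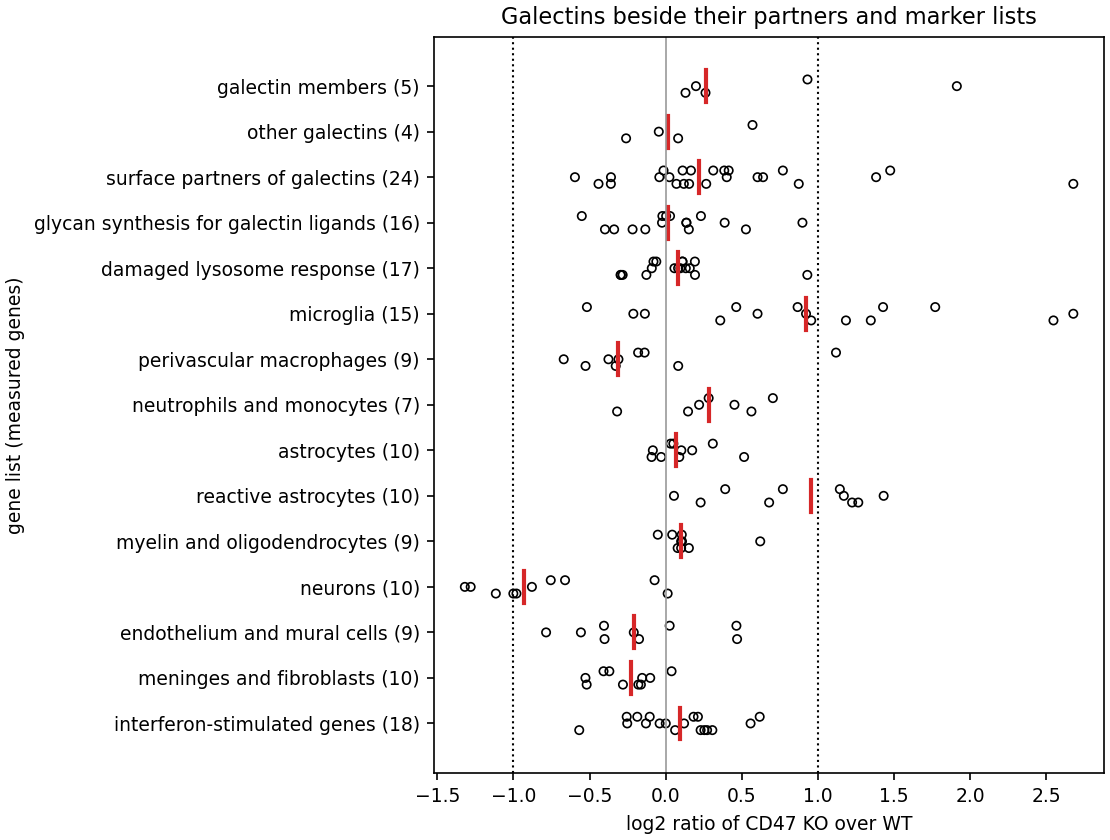
Log2 ratio (CD47 KO over WT, horizontal) of each measured gene (circles) among the 5 members, the other galectins, the lists of partners and the marker lists (rows, number of measured genes in brackets), with the median of each list as a red bar and 2-fold as dotted lines; the vertical scatter within a row has no meaning. Lgals3, the rightmost circle of the top row at 1.91, lies beyond the medians of microglia (0.92) and reactive astrocytes (0.96), and the lists of glycan synthesis and of the response to damaged lysosomes lie at about 0.

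Galectins act through glycoproteins on the cell surface and in lysosomes. Over all measured genes, 46.8% had a log2 ratio above 0 and 1.21% were over 2-fold higher. Of 24 measured genes known as partners of galectins, 18 had a log2 ratio above 0 and 3 were over 2-fold higher, with a median of 0.22. The 3 were Trem2, which is in the microglial list too, the β2 integrin gene Itgb2 (641 to 1784, log2 ratio 1.48) and Ptprc, which encodes CD45 (802 to 2092, 1.38), and all of them are genes of leukocytes. Havcr2, which encodes the galectin-9 receptor TIM-3, went from 247 to 452 (0.87) while Lgals9 itself had 0.20. Cd44, which encodes a hyaluronan receptor that galectins bind, had a log2 ratio of 0.77 (1464 to 2498) and is in the reactive astrocyte list too. Mertk, which encodes a phagocytic receptor for which galectin-3 is a known ligand, had a log2 ratio of 0.64 (846 to 1319). The brightest partner was Lamp1, a heavily glycosylated protein of the lysosomal membrane, at a log2 ratio of 0.17. Of the 6 partners below 0, the lowest were L1cam (563 to 373, log2 ratio -0.60) and Egfr (644 to 474, -0.44).

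Genes of the glycans that galectins bind were nearly level as a group. Most of them encode enzymes that add and trim the branched, galactose-ended chains of N- and O-glycans. Of 16 measured genes, 9 had a log2 ratio above 0, with a median of 0.02 and none over 2-fold. Gcnt1, which encodes the enzyme of core-2 O-glycan branching, went from 168 to 314 (0.90). The galactosyltransferase gene B4galt5 had a log2 ratio of -0.55. Glb1, which encodes the lysosomal β-galactosidase and not an enzyme of synthesis, had a log2 ratio of 0.53. The brightest was St6gal1, whose product caps galactose with sialic acid and so hinders galectin-1, at 0.00 (3766 to 3774). Mgat5, which encodes the enzyme that makes the most branched N-glycans, had a log2 ratio of 0.23 (458 to 538).

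Genes of the response to damaged lysosomes, in which galectin-3, galectin-8 and galectin-9 take part, had a median of 0.08 over 17 measured genes, with 10 above 0 and none over 2-fold. The largest ratio was that of Tfeb, the transcription factor gene of lysosome formation, which went from 203 to 388 (0.93). Tsg101, of the ESCRT machinery that mends membranes, had -0.30, and Trim16, whose product works with galectin-3, was at least 1.23-fold lower, with a CD47 KO signal of 92.8 under the floor. The brightest, the ESCRT gene Chmp4b, had 0.11.

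Lgals9, whose promoter window held the full interferon core, and Lgals3bp, whose window held only the looser form, are also known as genes that interferons induce. Of 18 measured interferon-stimulated genes 11 had a log2 ratio above 0, with a median of 0.09, and 16 had both signals above the floor, none of them over 2-fold. Mx1 and Mx2 had a WT signal under the floor, so that their ratios are only lower bounds. Mx2 went from 29.6 to 157 and was at least 1.47-fold higher, and Mx1, from 60.7 to 125, at least 1.17-fold. Among the others, Bst2 had the largest log2 ratio at 0.62, Ifit1 had a log2 ratio of -0.57, and the brightest, Ifit3, one of -0.19. The log2 ratio of Lgals3bp, 0.93, was above those of these 16 genes and cannot be placed against Mx1 and Mx2. The log2 ratio of Lgals9, 0.20, was within the range of the 16.

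The genes whose pair of signals lay closest to that of Lgals3 were Gh, Mpeg1, C1qc, Cd24a and S100a4, at a distance of 0.44 to 0.57 over the log2 signals of both arrays. With 1 array per genotype this is a likeness of 2 values. Since a signal also depends on the probe set, it is no likeness of transcript levels. Mpeg1, a pore-forming protein gene of macrophages, went from 3344 to 9843 (log2 ratio 1.56) and C1qc, a chain of complement C1q, from 2335 to 6286 (1.43). S100a4, a calcium-binding protein gene, went from 1817 to 7085 (1.96), Cd24a, a surface glycoprotein gene, from 3239 to 7033 (1.12), and Gh, the growth hormone gene of the pituitary, from 2191 to 6908 (1.66).

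**Figure D4:**
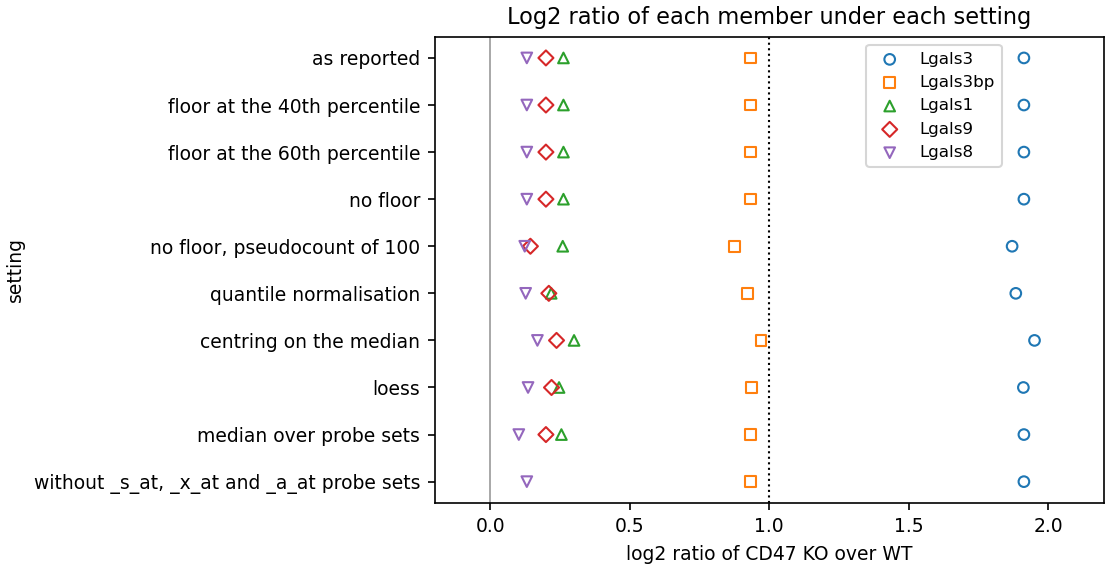
Log2 ratio (CD47 KO over WT, horizontal) of Lgals3bp and the 4 galectin genes (symbols) under the reported setting and 9 alternatives (rows); the dotted line marks 2-fold. Lgals3 stays between 1.87 and 1.95 and Lgals3bp between 0.87 and 0.97, though rows that change only the floor or the probe sets cannot move these 2 genes. The bottom row has no value for Lgals1 and Lgals9, whose probe sets all carry the suffix left out there.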

How the data were processed

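Total RNA of optic nerve and optic tract was pooled per genotype, labelled by in vitro transcription from the 3' end and put on Affymetrix Mouse Genome 430 2.0 arrays, 1 per genotype. The authors deposited a linear MAS5 intensity for each probe set, made with Expression Console. A MAS5 version is not given in the sources, and detection calls were not used. Each array had a trimmed mean of 500.003 (2% left out at each end), so each had been scaled by 1 factor.

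From these intensities, 64 control probe sets were set aside. Values under the 50th percentile of both arrays, 106.4, were raised to it (the floor), and log2 ratios of CD47 KO over WT were taken in Python 3.11.15. A gene was represented by its brightest probe set and counted as measured when that exceeded the floor on 1 array or both. Symbols came from the platform annotation, and 34741 of 34945 probe sets with 1 symbol matched the table of GRCm38.p6 by gene identifier. A floor shortens the ratios of dim genes. With 1 array per genotype no test was possible and no p-value is given; the number of arrays limits the precision. Counts use the study's 2-fold threshold, and 1.5-fold as a second one. The steps were tested on simulated data.

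The members, the gene lists and the motifs were chosen with earlier results of these data known. Named genes are all members, the measured other galectins, and of each other list the 3 with the largest absolute log2 ratio and the brightest, with all over 2-fold where these are 5 or fewer; further names were picked with the values in view. Alternatives were other floors, no floor, a pseudocount of 100, quantile normalisation, median centring, loess, the median over probe sets, and removal of probe sets with the suffixes _s_at, _x_at and _a_at.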

Additional observations from a re-analysis of the deposited data

How the results depend on the processing

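Over the 9 alternatives the log2 ratio of Lgals3 lay between 1.87 and 1.95, that of Lgals3bp between 0.87 and 0.97, that of Lgals1 between 0.22 and 0.30, that of Lgals9 between 0.14 and 0.24 and that of Lgals8 between 0.10 and 0.17. Several alternatives could not move Lgals3 or Lgals3bp, each with 1 probe set far above every floor. Other floors, no floor, the median over probe sets and removal of suffixed probe sets left them at 1.91 and 0.93. In each of the 9 alternatives 1 of the 5 genes was over 2-fold higher. The spread between probe sets of a gene was taken as 0.25 for 1 log2 ratio and 0.35 for a difference. The differences between Lgals3 and the other members, and the medians of the partner and marker lists, moved by less than this spread. Centring shifts all log2 ratios alike and all members exceeded every floor, so centring, other floors and no floor could not move the differences. The signs of the list medians held, except for the other galectins (-0.10 to 0.06) and glycan synthesis (-0.02 to 0.14), which lie about 0. Lgals1 and Lgals9 had no value without probe sets of the suffixes _s_at, _x_at and _a_at. Without these, Lgalsl turned from -0.26 to 0.019, since another probe set then stood for it. A floor at the 60th percentile took Lgals12 from 0.57 to 0.07, its WT signal then being under the floor.

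The counts over all genes depended on the floor. Against 151 higher and 102 lower, a floor at the 40th percentile gave 212 and 173 and one at the 60th gave 111 and 55. There were 250 and 250 without a floor and 108 and 37 with a pseudocount of 100. No paired analysis was possible because each genotype has 1 array. No call here was checked in a further sample, and signals near the floor, as those of Lgals9, Lgals2, Lgals4 and Lgals12, are the least precise.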
